A study of Mus musculus with 6 samples.

Results

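The genes described here build cholesterol and fatty acids or control that synthesis, and they were followed in Ba/F3 cells. This line was derived from mouse B cell precursors and depends on interleukin 3 for growth. The list held 33 genes taken from the known targets and regulators of the SREBP pathway, with 5 regulators, 17 genes of the sterol arm and 11 of the fatty acid arm. Each gene was represented by its brightest probe set over the 6 arrays of the series. A value was found for 32 of them, Acat2 was not analysed here, and 31 of the 33 lay above a filter on dim genes that kept 10916 of 18193 genes. The exception was Scd1, with signals of 20, 28.3 and 21.7 in NCOR1-LYN replicates 1, 2 and 3, against 57.1, 29.4 and 46.2 in control replicates 1, 2 and 3, which is at or near the filter (a signal of about 47).

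The 3 NCOR1-LYN samples were Ba/F3 cells given doxycycline, which switched on a retroviral Tet-on construct for NCOR1-LYN, a protein that joins parts of a nuclear receptor corepressor and a tyrosine kinase. The 3 control samples were the uninduced cells. Both groups carried the construct, and only the NCOR1-LYN group received doxycycline, so drug and fusion protein cannot be told apart. The dose and time of doxycycline, and whether the line is 1 clone, are not given in the sources used here. One array was hybridised per sample, the cultures are described as triplicates and no more, and p-values therefore measure the spread between these arrays, which may be partly technical.

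Cholesterol is made from acetyl-CoA through mevalonate, isoprenoids, squalene and a series of sterol intermediates, and fatty acids are made from the same acetyl-CoA. Both routes are switched on by the SREBP transcription factors, which are held in the endoplasmic reticulum by INSIG proteins while sterols are plentiful and are cut free in the Golgi when sterols run low. The Srebf2 product acts mostly on the sterol genes and the Srebf1 product mostly on the fatty acid genes, and dividing blood cells draw on both for new membrane.

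The replicate 1 arrays of both groups stood apart from the others. In a principal component analysis of the 10916 genes, the leading component held 58.1% of the variance and placed NCOR1-LYN 1 at −25.1 and control 1 at −37.3, with the other 4 arrays between 12.1 and 18.7. Median signals were 54.8 to 61.9. Of the 9 pro-B markers with a value, 5 lay below the filter (Cd79a, Vpreb1, Ebf1, Rag1 and Dntt), so these markers of the labelled B lineage were at or near background. Igll1 and Pax5 passed the filter on their means but scattered around it, with signals of 13.9 to 178.5 and 7.65 to 124.8. Cd79b, a B cell receptor gene of the same list, had signals of 403 to 577, and the pan-leukocyte gene Ptprc had at least 8278 on every array. Summed signals of 13 myeloid markers were 9164 to 10614 with NCOR1-LYN and 2733 to 2998 in control cells, mostly from Ngp and Prtn3, and the members went both ways. Ngp was higher with NCOR1-LYN in every pair, Prtn3 was level in pair 1 (1746 with NCOR1-LYN and 1763 in control cells), and S100a9 was lower with NCOR1-LYN in pairs 2 and 3. Mast cell markers also moved with the groups, in opposite directions. Fcer1a had 1596, 4386 and 3721 with NCOR1-LYN, against 975, 388 and 341 in control cells, while Gata2 had 6373, 4339 and 5671 with NCOR1-LYN, against 14085, 7775 and 7669 in control cells, and Cma1 was lower with NCOR1-LYN in each pair. The part of these markers in the results below was not tested. Fewer cells of a type and less RNA per cell cannot be told apart in such bulk samples.

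Whether induction of the fusion changed this pathway was asked by setting NCOR1-LYN against control cells. In limma 0 of the 31 genes passed the threshold, an adjusted p of 0.05 over all genes. The background was 0.0824% of all genes called. With the replicate number as a block, 0 of the 31 passed too, against 0.824% of all genes. At an unadjusted p of 0.05, the count among the 31 was 0 without and 8 with the block, against 519 and 1231 of all 10916 genes. All 31 overlapped between the groups except Fdft1. Changes are given below as NCOR1-LYN minus control on the scale of log2(signal + 64), which understates the change of dim genes, and standard errors are from limma.

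**Figure D1:**
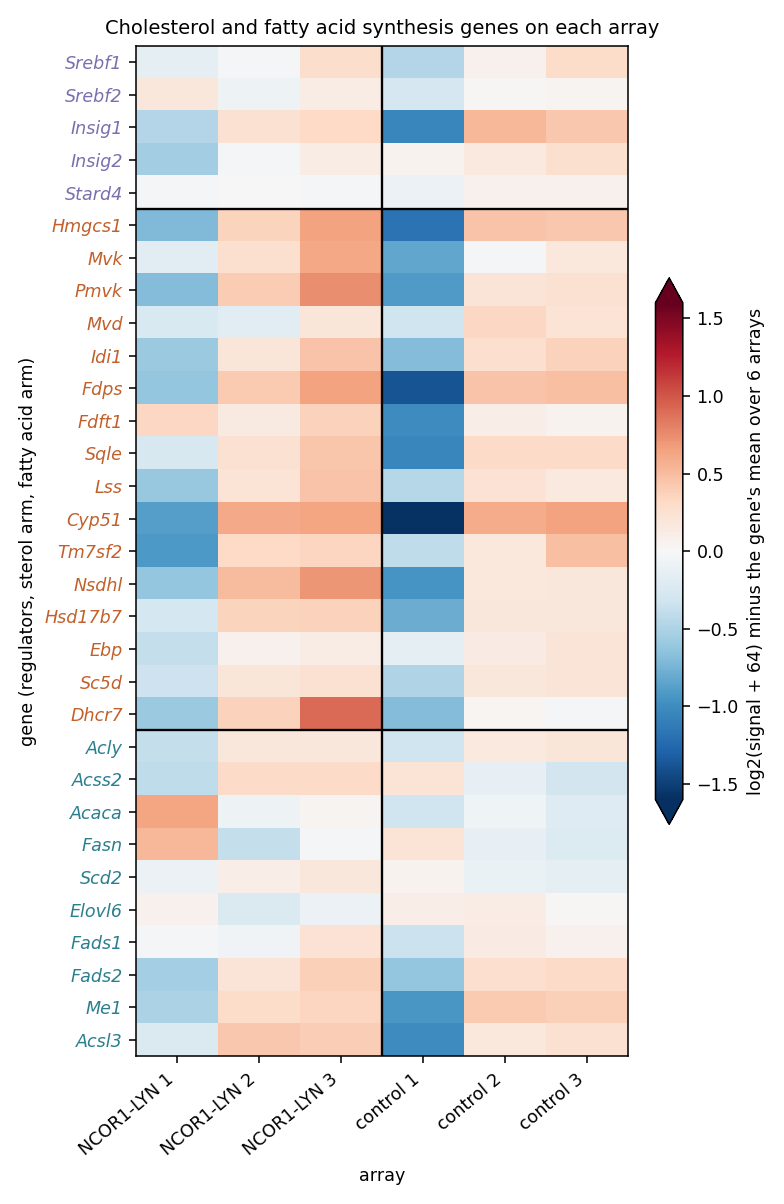
Colour shows log2(signal + 64) of each of the 31 genes on each array, minus the gene's mean over the 6 arrays, with the NCOR1-LYN arrays left of the control arrays and regulators, sterol arm and fatty acid arm from top to bottom. The columns of NCOR1-LYN 1 and control 1 are blue for 15 of the 16 sterol genes, and among replicates 2 and 3 the groups differ by up to 0.92 in a pair, in Dhcr7.

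Among the regulators, no gene passed, and the genes of the SREBP factors themselves overlapped between the groups. Srebf2 had signals of 1184, 979 and 1133 in NCOR1-LYN replicates 1, 2 and 3, against 847, 1047 and 1068 in the controls of the same numbers, a log2 change of 0.15 ± 0.15. Srebf1 had a change of 0.07 ± 0.22, with signals of 2338, 2527 and 3149 in NCOR1-LYN cells, against 1848, 2711 and 3188 in control cells. Neither change exceeded the spread between replicates. Insig1, which encodes the ER retention protein and is itself an SREBP target, had signals of 709.8, 1201 and 1269 with NCOR1-LYN, against 454, 1488 and 1376 in control cells. Its change was 0.06 ± 0.43, and replicate 1 was the lowest array of each group. Insig2, the second retention protein gene, was lower with NCOR1-LYN in each pair of the same number (−0.61, −0.19 and −0.14 on the log2 scale in pairs 1, 2 and 3), and its mean change of −0.31 ± 0.19 did not pass (adjusted p = 0.999 in limma). Stard4, whose product carries sterols between membranes, had signals of 1899.9, 1912 and 1910.2 in NCOR1-LYN cells, against 1804, 2031 and 2021 in control cells.

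The sterol arm had a median log2 change of 0.26, against 0.09 in the fatty acid arm and −0.01 over all 10916 genes. Of its 16 genes, 7 were higher with NCOR1-LYN in all 3 pairs and 1 was lower in all 3, where 15.9% and 18.9% of all genes were. The 7 were Mvk, Pmvk, Fdft1, Nsdhl, Hsd17b7, Sc5d and Dhcr7, and Ebp was the lower one. The size of the median changed with the arrays kept. It was 0.52, 0.11 and 0.00 when NCOR1-LYN 1, 2 or 3 was left out, and −0.17, 0.48 and 0.48 when control 1, 2 or 3 was left out. Replicate 1 arrays were low for this arm in both groups, and leaving out 1 array makes their share unequal between the groups. The values with 1 array left out therefore do not show that a single array carried the change. Within pairs 1, 2 and 3 the median was 0.27, 0.01 and 0.17, and without both replicate 1 arrays it was 0.06. The mean change of the sterol arm exceeded that of the fatty acid arm by 0.08, and by 0.05 without both replicate 1 arrays. In pairs 1, 2 and 3 the mean changes were 0.33, 0.04 and 0.22 in the sterol arm. They were 0.20, −0.005 and 0.16 in the fatty acid arm. The difference was 0.29 without NCOR1-LYN 1 and −0.15 without control 1, but these fits keep a replicate 1 array in only 1 group. It was not tested, and no direction between the arms is read from it.

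In the first steps, from acetyl-CoA to the isoprenoids, Hmgcs1, which encodes the cytosolic HMG-CoA synthase, had signals of 2319, 4936 and 6002 in NCOR1-LYN replicates 1, 2 and 3, against 1653, 5292 and 5187 in control replicates 1, 2 and 3. The groups overlapped, with replicate 1 lowest in both. Mvk, the mevalonate kinase gene, had 399, 564 and 740.5 with NCOR1-LYN, against 232, 454 and 525 in control cells, and was higher in each pair by 0.65, 0.28 and 0.45. Pmvk, the next kinase of the route, had 521, 1189 and 1516 with NCOR1-LYN, against 438, 1026 and 1056 in control cells. For Pmvk, but not for Mvk, each difference within a pair was smaller than that between the replicate 1 array and the others of its group. Mvd, whose product decarboxylates the diphosphate, had pair changes of 0.07, −0.52 and −0.02, while its second probe set had 0.41, 0.19 and −0.08, so the direction of Mvd differed between its probe sets. Idi1, the isopentenyl diphosphate isomerase gene, had 3409, 5941 and 7106 with NCOR1-LYN, against 3192, 6265 and 6705 in control cells. Fdps, which encodes farnesyl diphosphate synthase, had 5309, 10959.9 and 12801 with NCOR1-LYN, against 3088, 11192 and 11408 in control cells. The pair changes were 0.09, −0.08 and 0.08 for Idi1 and 0.77, −0.03 and 0.17 for Fdps, so that in Fdps the first pair differed most.

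From squalene onwards, Fdft1, which encodes squalene synthase and commits the route to sterols, had signals of 3778, 3307 and 3893 in NCOR1-LYN replicates 1, 2 and 3, against 1455, 3243 and 3124 in control replicates 1, 2 and 3. It was the 1 of 31 genes whose groups did not overlap, where 5.17% of all genes lay wholly above the controls with NCOR1-LYN and 6.06% wholly below. The probe set used for Fdft1, like those for Hmgcs1, Lss, Hsd17b7, Acly and Acsl3, is of a type that may also bind related transcripts. The Fdft1 change of 0.56 ± 0.29 had an adjusted p of 0.999 in limma, and most of it came from pair 1. Sqle, the squalene epoxidase gene, had 2399.8, 3440.0 and 3961 with NCOR1-LYN, against 1363, 3581 and 3598 in control cells. Lss, the gene of lanosterol synthase, had 605, 1121 and 1326 with NCOR1-LYN, against 676, 1126 and 1068 in control cells. Sqle and Lss overlapped between the groups. Cyp51, the lanosterol demethylase gene, had 696, 2067 and 2097 with NCOR1-LYN, against 402, 2055 and 2114 in control cells, with pair changes of 0.71, 0.01 and −0.01. Tm7sf2, a sterol reductase gene, had pair changes of −0.52, 0.15 and −0.15. Nsdhl, which takes part in removing the methyl groups of lanosterol, had 1135, 2552 and 2943 with NCOR1-LYN, against 890.1, 2006 and 2032 in control cells. Its pair changes were 0.33, 0.34 and 0.52, and its mean change was 0.40 ± 0.42. Hsd17b7, a ketoreductase gene of the same demethylation, had pair changes of 0.51, 0.18 and 0.18. The late enzymes Ebp (a sterol isomerase) and Sc5d (a desaturase) had mean changes of −0.13 ± 0.18 and 0.07 ± 0.24. Dhcr7, whose product makes the final reduction to cholesterol in one branch of the route, had 418, 869.7 and 1297 with NCOR1-LYN, against 385, 675 and 654 in control cells. Its pair changes of 0.10, 0.34 and 0.92 differed widely, with NCOR1-LYN 3 the highest array.

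The fatty acid arm showed no shared direction between the groups, with median changes of 0.19, −0.035 and 0.16 in pairs 1, 2 and 3. The median was 0.20 without NCOR1-LYN 1 and −0.03 without control 1, but these fits keep a replicate 1 array in only 1 group. Acly, which supplies cytosolic acetyl-CoA from citrate, had signals of 4076, 6047 and 6063 in NCOR1-LYN replicates 1, 2 and 3, against 4271, 5991 and 6104 in control replicates 1, 2 and 3, so that the same-numbered arrays lay close. Acss2, which makes acetyl-CoA from acetate, had 1914, 3199 and 3195 with NCOR1-LYN, against 2992, 2341 and 2089.7 in control cells. It was lower with NCOR1-LYN in pair 1 and higher in pairs 2 and 3, and its second probe set did likewise (−1.06, 0.56 and 0.49). Acaca, the acetyl-CoA carboxylase gene, had 1467, 873 and 950.4 with NCOR1-LYN, against 725, 879 and 788 in control cells, with NCOR1-LYN 1 above the other 5 arrays. Fasn, the fatty acid synthase gene, had 2904, 1516 and 1958 with NCOR1-LYN, against 2318, 1812 and 1701 in control cells, and replicate 1 was the highest array of each group. Scd2, a stearoyl-CoA desaturase gene whose paralogue Scd1 was at or near the filter here, had 13522, 15603 and 16475 with NCOR1-LYN, against 15052, 13436 and 13058 in control cells. Elovl6, a fatty acid elongase gene, had 1448, 1165 and 1281 with NCOR1-LYN, against 1485, 1493 and 1396 in control cells, and was lower in each pair (−0.03, −0.34 and −0.12). The desaturase genes Fads1 and Fads2 had mean changes of 0.10 ± 0.16 and 0.03 ± 0.32. Me1, the malic enzyme gene that supplies NADPH, had a mean change of 0.08 ± 0.40. Acsl3, which activates long-chain fatty acids, had 796, 1290.3 and 1257 with NCOR1-LYN, against 439, 1069 and 1124 in control cells, and was the 1 gene of this arm that was higher in all 3 pairs.

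**Figure D2:**
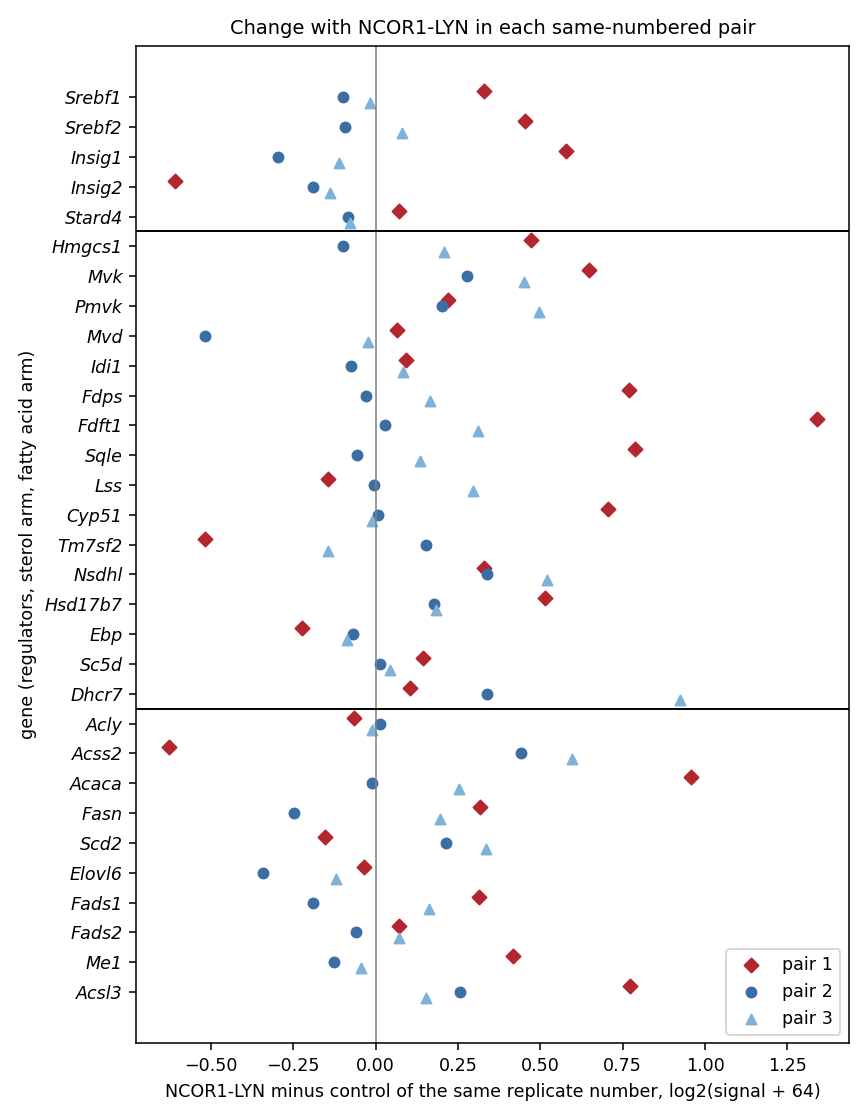
Each symbol is the signal of an NCOR1-LYN array minus that of the control array of the same replicate number, on the scale of log2(signal + 64), for the 31 genes, with pair 1 as diamonds, pair 2 as circles and pair 3 as triangles. Pair 1 lies right of 0 for 23 genes and reaches 1.34 for Fdft1, while most symbols of pairs 2 and 3 lie within 0.5 of 0.

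When both replicate 1 arrays were left out, 4 of the 31 genes passed in limma, all higher with NCOR1-LYN. This is 12.9%, against 6.78% of all genes in either direction, 3.16% higher and 3.62% lower. They were Nsdhl with a log2 change of 0.43 ± 0.08 (adjusted p = 0.0101), Dhcr7 with 0.63 ± 0.15 (adjusted p = 0.0369), Acss2 with 0.52 ± 0.07 (adjusted p = 0.00212) and Scd2 with 0.27 ± 0.06 (adjusted p = 0.0284). The other 27 did not pass. In the pair left out, Acss2 and Scd2 were lower with NCOR1-LYN (−0.63 and −0.15), and Nsdhl and Dhcr7 were higher (0.33 and 0.10). The arrays left out were chosen because they stood apart. With 2 arrays left in each group, the error had 2 residual degrees of freedom.

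**Figure D3:**
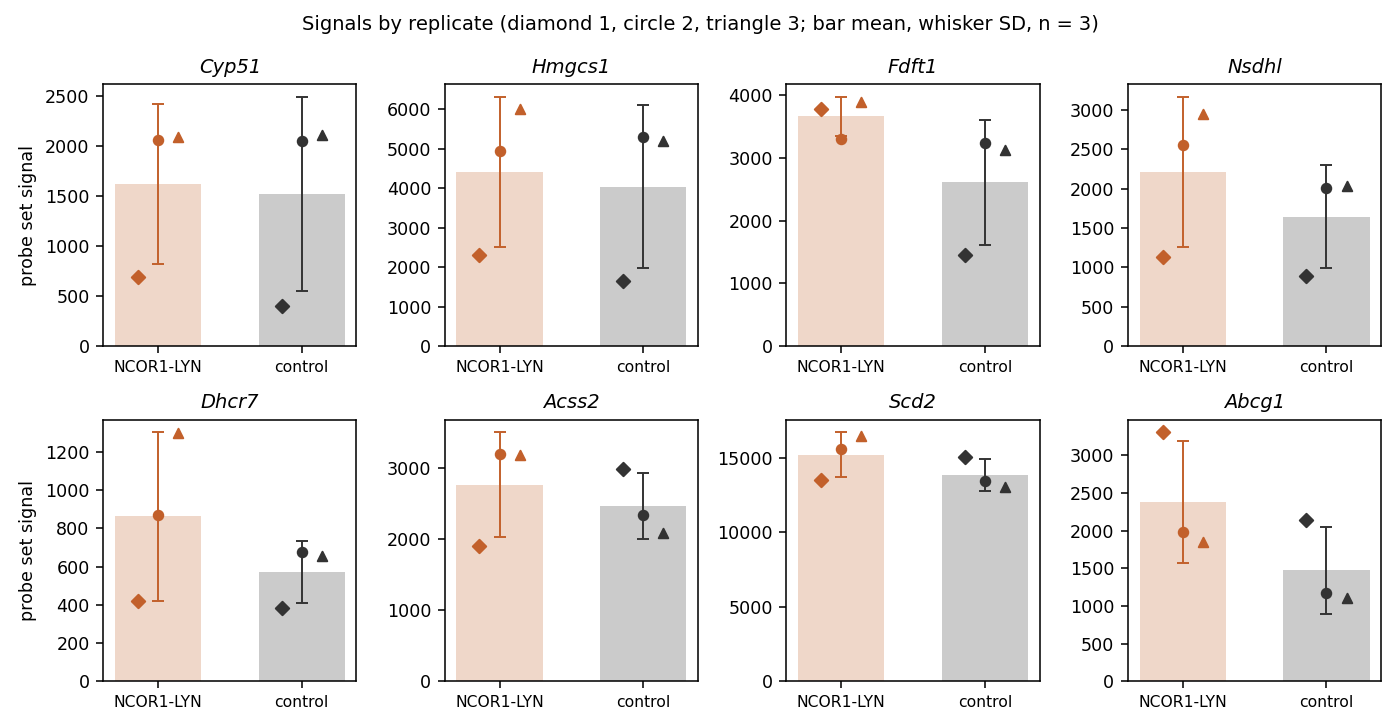
Probe set signals on a linear scale for 8 genes, with NCOR1-LYN left of control, bars at the mean, whiskers of 1 SD (n = 3) and a symbol for each replicate (diamond 1, circle 2, triangle 3). For Cyp51, Hmgcs1, Nsdhl and Dhcr7 the diamonds are the lowest symbol in both groups, for Fdft1 only in control cells, and for Abcg1 they are the highest in both.

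Most sterol genes were low on the replicate 1 arrays of both groups. Both replicate 1 arrays lay below all other arrays for 22 of the 31 genes (71%), 15 of them among the 16 sterol genes (93.8%), against 21.4% of all genes. In the fatty acid arm this was so for 4 of 10 genes (Acly, Fads2, Me1 and Acsl3), and among the regulators for 3 of 5 (Srebf1, Insig1 and Stard4). The opposite order, both replicate 1 arrays above the other 4, was found for 1 of the 31 genes, Fasn, against 26.8% of all genes. Replicate 1 was singled out because its arrays stood apart over all genes, so these counts and sizes are a description and were not tested.

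The sizes were given by each replicate 1 array minus the mean of replicates 2 and 3 of its group. The median over the sterol genes was −0.93 in NCOR1-LYN and −0.99 in control cells, over the fatty acid genes −0.40 in NCOR1-LYN and −0.32 in control cells, and over all genes 0.03 in NCOR1-LYN and 0.05 in control cells. Cyp51 differed most, by −1.50 in NCOR1-LYN and −2.20 in control cells, a mean of 3.61-fold. Fdps differed by −1.15 in NCOR1-LYN and −1.85 in control cells, and Hmgcs1 by −1.21 in NCOR1-LYN and −1.63 in control cells. Insig1, Pmvk, Nsdhl and Me1 were the other genes at least 2-fold lower in the mean of both groups, which made 7 of 31 (22.6%) against 1.07% of all genes. At least 2-fold higher were 0 of 31, against 2.24% of all genes. The exception in the sterol arm was Fdft1, with 0.07 in NCOR1-LYN and −1.10 in control cells. Among 21 members whose second probe set also passed the filter, 17 had the same sign with replicate 1 in it, in the mean of both groups. The others were Srebf2, Sc5d, Scd2 and Fads1. This mean can hide groups of opposite sign. In that probe set Me1 had 0.09 in NCOR1-LYN and −1.03 in control cells, and Fdft1 had 0.22 and −1.09. A further probe set of Stard4 had 0.44 in NCOR1-LYN and 0.55 in control cells, and another of Hsd17b7 had 0.28 and 0.15. Further probe sets of Hmgcs1, Cyp51 and Acsl3 were lower with replicate 1 in both groups. Probe sets of 1 gene share their RNA and are no replicates of it. Idi1 had a mean of −0.96 in its brightest and −1.77 in its second probe set. Lss had −0.79 and −0.01, the latter from groups of opposite sign. Another Lss probe set above the filter had −0.98 in NCOR1-LYN and −1.22 in control cells. It was thus lower with replicate 1 in both groups, as was the brightest. The size was uncertain for Lss, and its direction was not shared by all its probe sets.

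**Figure D4:**
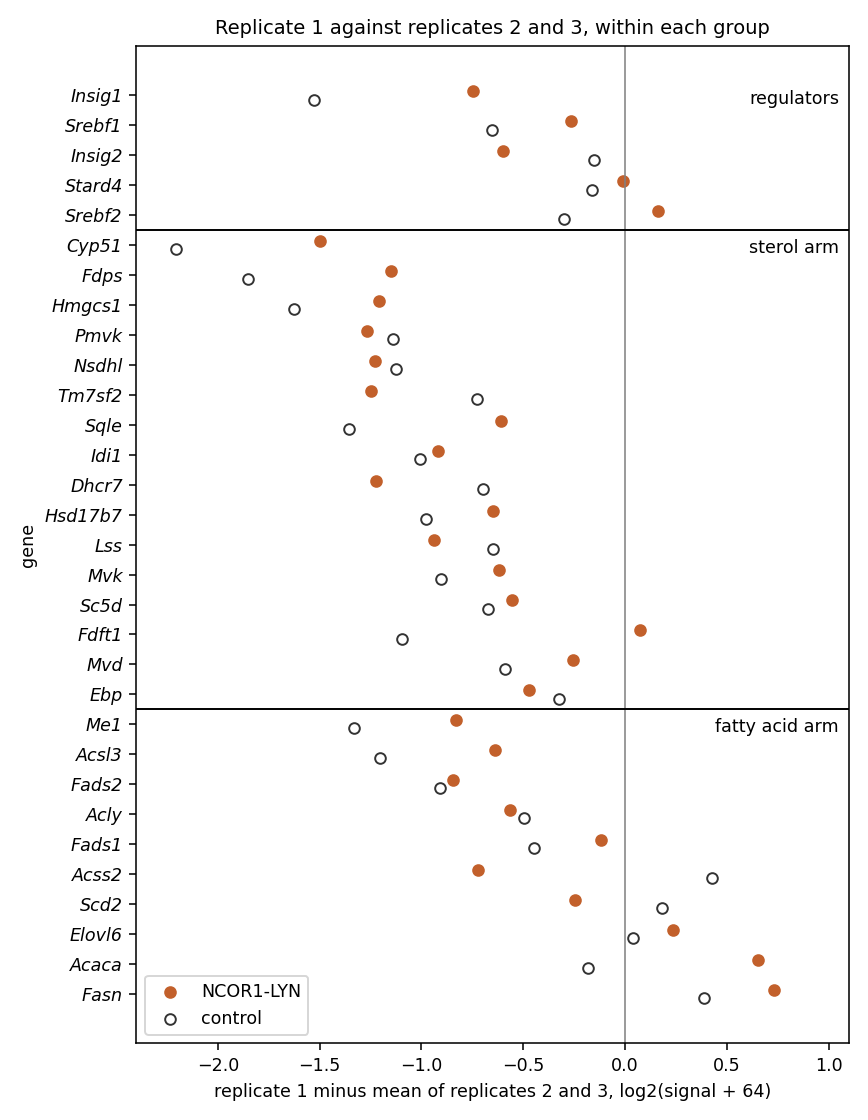
For each gene, the replicate 1 array minus the mean of replicates 2 and 3 of the same group on the scale of log2(signal + 64), with NCOR1-LYN as filled and control as open circles, ordered within regulators, sterol arm and fatty acid arm by the mean of both. All sterol genes but Fdft1 lie left of 0 in both groups, Cyp51 farthest, while Fasn and Elovl6 lie right of 0 in both.

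Other measures also differed on replicate 1 arrays, in both groups or in control cells only. Summed signals of 9 proliferation markers were 71244 in NCOR1-LYN 1 and 54155 in control 1, against 78778 and 84274 in the other NCOR1-LYN arrays and 86347 and 82577 in the other control arrays. Summed signals of 8 mast cell markers were 15951 in control 1, of which Gata2 was 14085, against 8271 to 9581 in the other 5 arrays. NCOR1-LYN 1 had 8271, the lowest sum, so this rise was in control 1 only. RNA quality was read from control probe sets at both ends of a transcript, and the 3′ over 5′ ratio of beta-actin was 1.15 in NCOR1-LYN 1 and 1.17 in control 1, against 1.19 to 1.24 in the others, and that of Gapdh 0.681 in NCOR1-LYN 1 and 0.685 in control 1, against 0.703 to 0.742. The part of these differences in the lower sterol gene signals was not tested, and the labels do not say whether a replicate number marks a day or a batch.

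Because the sterol genes moved together between replicates, their promoters are shown from RefSeq (build GRCm38.p6), as the 250 bases before the gene start. An entry was found for 26 of the 33 genes. Insig1, Hmgcs1, Mvk, Cyp51 and Nsdhl stand for genes low in both replicate 1 arrays, and Elovl6 for a gene with little difference there. Capitals mark the 5 letters CCAAT on either strand, the box bound by NF-Y, a partner of the SREBP factors, and in Hmgcs1 also the letters TCACNCCAC, a form of the sterol regulatory element.
Insig1, chr5:28071162-28071411 (plus strand): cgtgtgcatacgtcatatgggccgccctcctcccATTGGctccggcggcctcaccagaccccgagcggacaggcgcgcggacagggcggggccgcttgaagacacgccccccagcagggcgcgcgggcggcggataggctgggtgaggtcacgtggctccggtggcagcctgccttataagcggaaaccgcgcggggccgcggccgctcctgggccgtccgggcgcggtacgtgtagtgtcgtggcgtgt
Hmgcs1, chr13:119690101-119690350 (plus strand): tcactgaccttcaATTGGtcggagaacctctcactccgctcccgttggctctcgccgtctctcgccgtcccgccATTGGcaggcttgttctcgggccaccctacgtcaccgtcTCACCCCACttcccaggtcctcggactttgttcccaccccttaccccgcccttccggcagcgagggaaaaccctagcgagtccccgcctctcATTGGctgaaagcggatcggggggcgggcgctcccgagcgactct
Mvk, chr5:114444019-114444268 (plus strand): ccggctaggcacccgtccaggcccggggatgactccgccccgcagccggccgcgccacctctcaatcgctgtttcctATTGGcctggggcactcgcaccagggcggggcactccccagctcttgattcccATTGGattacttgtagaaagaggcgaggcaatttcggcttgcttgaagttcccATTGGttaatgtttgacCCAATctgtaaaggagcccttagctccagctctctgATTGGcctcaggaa
Cyp51, chr5:4104698-4104947 (minus strand): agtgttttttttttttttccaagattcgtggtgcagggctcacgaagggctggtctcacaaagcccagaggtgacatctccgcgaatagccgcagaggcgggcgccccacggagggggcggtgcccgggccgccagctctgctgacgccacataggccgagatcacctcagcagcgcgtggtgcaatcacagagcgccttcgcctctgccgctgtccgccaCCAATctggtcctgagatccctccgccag
Nsdhl, chrX:72918271-72918520 (plus strand): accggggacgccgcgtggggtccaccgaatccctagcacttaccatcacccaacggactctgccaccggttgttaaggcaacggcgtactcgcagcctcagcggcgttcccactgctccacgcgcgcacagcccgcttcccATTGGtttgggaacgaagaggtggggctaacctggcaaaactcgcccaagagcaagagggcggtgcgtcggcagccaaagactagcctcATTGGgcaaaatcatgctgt
Elovl6, chr3:129532136-129532385 (plus strand): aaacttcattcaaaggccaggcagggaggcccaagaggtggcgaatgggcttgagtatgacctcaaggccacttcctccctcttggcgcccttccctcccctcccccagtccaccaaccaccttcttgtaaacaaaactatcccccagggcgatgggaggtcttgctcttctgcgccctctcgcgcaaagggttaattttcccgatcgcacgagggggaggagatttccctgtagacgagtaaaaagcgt

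The CCAAT letters, searched on both strands, were found in 13 of 14 sterol arm genes with an entry (92.9%) and in 4 of 8 fatty acid genes (50.0%), against 40.6% of the tested genes with an entry and 37.5% of all 27025 genes. At least 2 copies stood in 8 of the 14 sterol genes (57.1%), against 15.3% of the tested genes. The members were chosen as SREBP pathway genes, and NF-Y is a partner of these factors. These shares are therefore a description of chosen genes and were not tested. Mvk held 5 copies and Hmgcs1 3, while Elovl6 held none in this window. The 13 sterol genes with the letters were all low on both replicate 1 arrays, and the sterol gene without them was Acat2, which was not analysed. Elsewhere Fasn, high on both replicate 1 arrays, held 3 copies, and Acly and Fads2, low on both, held none. Whether the letters follow the replicate 1 signals was not tested. The letters TCACNCCAC were found in 1 of the 26 members, Hmgcs1, against 1.3% of the tested genes. The GC box letters GGGCGG were found in 13 of 14 sterol genes and 62.7% of the tested genes, and the E-box letters CACGTG in 3 of 14 sterol genes and 9.9% of the tested genes. These matches describe letters and not binding, a match of 1 of these motifs is not a match of another, and a gene with several starts was given its start with most matches.

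The change with NCOR1-LYN in the replicate 1 pair was also set against that in the others. Each group had 1 replicate 1 array, these arrays were singled out because they stood apart, and the spread came from replicates 2 and 3 alone. The adjusted p-values of this group by replicate 1 term in limma therefore set pair 1 against the spread of the closer arrays and do not show that the NCOR1-LYN change itself differed. The term passed an adjusted p of 0.05 for 9 of the 31 genes (29%), against 12% of all genes. The change was higher in pair 1 for 7 genes (22.6%, against 5.22% of all genes) and lower for 2 (against 6.79%). In that pair 23 of 31 genes were higher with NCOR1-LYN, against 46.4% of all genes. Fdft1 differed most, with a change in pair 1 that exceeded the mean of pairs 2 and 3 by 1.17 ± 0.14 (adjusted p = 0.00151), and its second probe set had pair changes of 1.48, 0.21 and 0.13. Cyp51 differed by 0.71 ± 0.12 (adjusted p = 0.00843) and Sqle by 0.75 ± 0.13 (adjusted p = 0.00851). Fdps differed by 0.70 ± 0.13 (adjusted p = 0.0118). The feedback gene Insig1 differed by 0.78 ± 0.15 (adjusted p = 0.0102), with pair changes of 0.58, −0.29 and −0.11. For these 5 genes control 1 was the lowest of the 6 arrays. In the fatty acid arm, Acaca had a difference of 0.84 ± 0.16 (adjusted p = 0.0111) and Acsl3 of 0.57 ± 0.14 (adjusted p = 0.0328). The opposite order was seen in Acss2, with −1.15 ± 0.12 (adjusted p = 0.00092), and Scd2, with −0.43 ± 0.11 (adjusted p = 0.0348). For Acsl3 the second probe set had pair changes of 0.35, 0.78 and 0.16, which do not all share that order, while the second probe set of Scd2 had −0.07, 0.42 and 0.48.

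**Figure D5:**
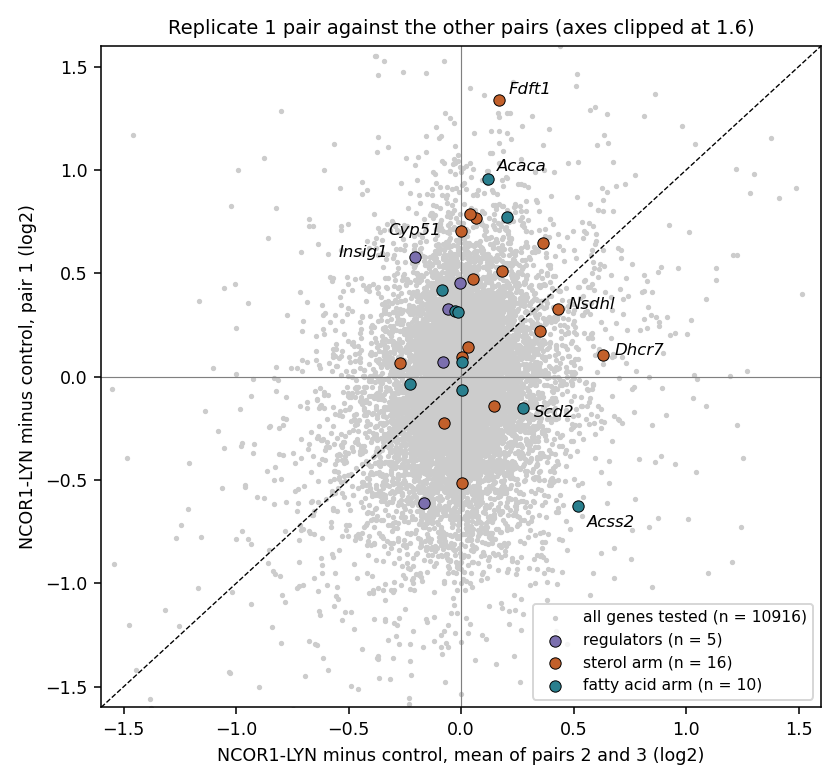
Change with NCOR1-LYN in pair 1 (vertical) against the mean change in pairs 2 and 3 (horizontal), both on the scale of log2(signal + 64), for all 10916 genes (grey) and the members (coloured by arm), with a dashed line where both are equal and some genes beyond the axes. Fdft1 and Acaca lie high above the line near a horizontal value of 0.1 to 0.2, and Acss2 lies below it, with 0.52 in pairs 2 and 3 and −0.63 in pair 1.

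The calls of Fdft1 and Acaca were lost when all probe sets of a gene above the filter, dim ones near it included, were averaged. Those of Acsl3 and Scd2 were lost when control 2 or control 3 was left out. Of the proliferation markers, 4 of 9 were called higher in pair 1 by the same term (44.4%), and their part was not tested.

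Other genes of lipid metabolism gave 0 calls without a block among 9 tested genes of sterol synthesis control and uptake, 10 of cholesterol efflux, storage and trafficking, 22 of other lipid synthesis and 13 of fatty acid oxidation. With the block 1 of these 54 passed. It was Abcg1, which encodes a cholesterol exporter induced by liver X receptors, with signals of 3303, 1978 and 1845 in NCOR1-LYN replicates 1, 2 and 3, against 2139, 1174 and 1113 in control replicates 1, 2 and 3. It rose by 0.68 ± 0.09 on the log2 scale in the blocked limma fit (adjusted p = 0.0301), against adjusted p = 0.999 without the block, and the pair changes of 0.61, 0.72 and 0.70 were even. In the blocked fit 0.266% of all genes were called higher. Abca1, another exporter gene, was named with its values known and had 1501, 1483 and 1784 with NCOR1-LYN, against 1209, 915 and 839 in control cells, a change of 0.66 ± 0.17 that did not pass in limma (adjusted p = 0.531, and 0.131 with the block), although its groups did not overlap. Without both replicate 1 arrays Abca1 had 0.85 ± 0.10 (adjusted p = 0.000766) and Abcg1 0.71 ± 0.08 (adjusted p = 0.000454) in limma. In that fit Scarb1 of the same list passed in the other direction, with −0.35 ± 0.09 (adjusted p = 0.0382 in limma). Of all genes, 3.16% were called higher and 3.62% lower in it.

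Where no gene of a list passed, the members with the largest change are given. Lrp8, a lipoprotein receptor gene, had pair changes of −0.55, −0.47 and −0.36, with all NCOR1-LYN arrays below the controls and an adjusted p of 0.709 in limma. Mylip, whose product degrades lipoprotein receptors, had −0.41, −0.50 and −0.23. Lpin1, a phosphatidate phosphatase gene, had −0.48, −0.36 and −0.68, and Acsl4, an acyl-CoA synthetase gene, 0.82, 0.26 and 0.22. Of fatty acid oxidation, the acyl-CoA dehydrogenase genes Acadm and Acads had −0.68, −0.42 and −0.11 and −0.82, −0.16 and 0.09. The signs were the same in all 3 pairs for these genes except Acads. Msmo1, a sterol methyl oxidase gene that works beside Nsdhl and was chosen with its values known, had 1774, 4648 and 4556 with NCOR1-LYN, against 1033, 3929 and 4289.8 in control cells, and so shared the low replicate 1 signals of the sterol arm. Hsd17b12, a fatty acid elongation gene also chosen with its values known, had 0.31, −0.66 and −0.55 in pairs 1, 2 and 3. Cpt1a, which carries fatty acids into mitochondrial oxidation and was chosen likewise, had 1574, 1168 and 1004 with NCOR1-LYN, against 2777, 879.9 and 903 in control cells, so that its replicate 1 signals were the highest of each group.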

How the data were processed

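The authors deposited linear intensities, 1 per probe set and array. The submitters' processing notes name MAS5, and its version is not given in the sources used here. MAS5 corrects for background and mismatch probes, so dim signals are noisy. Each array had a mean of 500 after trimming 2% of probe sets at each end, which no further scaling changed. The number of arrays limits the precision.

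Of 45101 probe sets, the 34945 with exactly 1 symbol in the platform annotation were used. Signals were taken as log2(signal + 64). The probe set brightest on average stood for its gene, and a filter at the 40th percentile of the gene means removed dim genes. All genes kept were fitted with limma 3.58.1 in R 4.3.3 (trend, Benjamini-Hochberg over all genes, two-sided), with 4 residual degrees of freedom, or 2 with the replicate block and for the group by replicate 1 term. Fits were tested on simulated data. Deviations from group means correlated at 0.618, 0.411 and 0.439 across genes for arrays of the same number. NCOR1-LYN 2 correlated at 0.485 with control 3, and NCOR1-LYN 3 at 0.396 with control 2. These values match the replicate 1 arrays with each other but do not tell replicates 2 and 3 apart. Pairs 2 and 3 therefore rest on the replicate number alone. Members, lists and motifs were chosen with earlier results of these data known. All 33 members are named. Of the other lipid lists the text names genes past the threshold without or with the block, or else the 2 with the largest change. Abca1, Scarb1, Msmo1, Hsd17b12 and Cpt1a were added with their values known. Alternatives were other offsets, filters, quantile normalization, the mean of a gene's probe sets above the filter, the block and leaving out arrays. Some genes of the lipid lists are not reported here.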

Additional observations from a re-analysis of the deposited data

Results flagged for a closer look

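The group by replicate 1 term in limma passed for 9 members and 5 other named genes. It rests on 1 replicate 1 array per group, chosen because these arrays stood apart, and assumes that they vary no more than replicates 2 and 3, so it does not show that the NCOR1-LYN change itself differed. Values are the change in pair 1 minus the mean change in pairs 2 and 3, in log2. Among members they were 1.17 for Fdft1, 0.84 for Acaca, 0.78 for Insig1, 0.75 for Sqle, 0.71 for Cyp51, 0.70 for Fdps and 0.57 for Acsl3. They were negative for Scd2 (−0.43) and Acss2 (−1.15). Among the other lipid genes they were 0.91 for Hsd17b12, 0.58 for Acsl4, 0.58 for Msmo1, −0.78 for Acads and −1.06 for Cpt1a. Groups of 3 arrays are too small for a test of single outlying arrays.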

How the results depend on the processing

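The count of 0 members called between NCOR1-LYN and control cells was also 0 with the replicate block and a smaller or a larger offset. It was 0 too with no filter or a filter at the 60th percentile, quantile normalization, and the mean of all probe sets above the filter. Leaving out arrays gave 0 to 4, the 4 without both replicate 1 arrays. Over all genes, 9 passed, against 90 with the block, 6 with the larger offset, 1 with no filter or the 60th percentile, 0 to 15 without single arrays and 740 without both replicate 1 arrays. The sterol arm median of 0.26 ran from −0.17 to 0.52 when arrays were left out, and the sterol minus fatty acid difference of 0.08 from −0.15 to 0.29. The fatty acid median of 0.09 was 0.20 without NCOR1-LYN 1, 0.01 without NCOR1-LYN 3, −0.03 without control 1 and 0.00 without both replicate 1 arrays. Leaving out 1 array makes the share of replicate 1 arrays, which were lower in both arms, unequal between the groups. The values with 1 array left out thus do not measure how stable the NCOR1-LYN change was. No direction is read from the fatty acid median. The 9 members called for the replicate 1 pair were 6 to 13 under other settings, the block giving 11. Scd2 was not called with the block, no filter, or without control 2 or control 3. Acsl3 was not called with no filter, the mean of all probe sets above the filter, or without control 2 or control 3. Fdps was not called with no filter, and Fdft1 and Acaca not with the mean of all probe sets above the filter. Over all genes that term called 1311, and 496 with no filter. Leaving out replicate 2 or 3 arrays for that term, and single arrays for the count of members with replicate 1 on one side (23, or 22 to 27), were chosen after seeing the data. Dim signals are limited by background, as for Scd1.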
